A study of Homo sapiens with 3 samples.

Results

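The mRNAs of the small ribosomal subunit proteins are described here as they appeared in DDX6 eCLIP libraries from MOLM-13 cells. The 28 genes, RPSA, the RPS genes with reads in the tables and FAU, were chosen by name, and all 28 were matched among the 36817 gene identifiers that had a read in any of the libraries. MOLM-13 is an established human acute myeloid leukaemia line. DDX6 is an RNA helicase found in P-bodies, which are cytoplasmic granules of stored mRNA, and the series title ties that storage to chromatin architecture in myeloid leukaemia. In eCLIP, proteins are linked to RNA by ultraviolet light, the RNA is trimmed with RNase I, the protein is pulled down with an antibody, and the RNA that comes with it is sequenced.

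The 2 groups were a DDX6 immunoprecipitate (IP, 2 libraries, with an antibody to DDX6) and the input (1 library, with no antibody recorded). All libraries came from crosslinked MOLM-13 cells with no other treatment or genotype given. Separate cultures are not stated for the IP libraries. The p-values therefore reflect the spread of these 2 libraries alone, which may be technical, and take the single input library to vary in the same way. On the members there were 38190 exonic reads in the first IP library, 9670 in the second and 41519 in the input, out of 3139720, 778703 and 2396008 exonic reads. All 10 myeloid marker genes had reads in every library, LYZ for example with 1085 and 226 in the IP libraries and 1875 in the input. Among markers of other cell types, HBB, CD3E, CD8A, CD79A, EPCAM and COL1A2 had no read in any library, which allows up to 3 reads a library, and the highest was COL1A1, with 82 and 10 reads in the IP libraries and 27 in the input.

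Small ribosomal subunit proteins bind ribosomal RNA to form the head, body and platform of the particle that holds the mRNA and reads its codons. Their mRNAs are short, abundant and nearly always carry a TOP (terminal oligopyrimidine) motif, a C at the start of the transcript followed by a run of pyrimidines. Through it their translation is switched off when growth signalling through mTOR falls, and LARP1 binds and protects the silenced mRNA. DDX6 represses translation and promotes decay of mRNAs that have been deadenylated or targeted by miRNAs.

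Annotated transcript starts are shown because the 5′UTR was the region in which members were called both higher and lower in the IP. Each line gives 5 bases before the start and 25 from it, 5′ to 3′ on the transcribed strand, with the pyrimidine run from the start in capitals; the sequences are RefSeq's, on GRCh38.p14.
RPS24: tggttCTCTTTTCCTCCTTggctgtctgaa
RPS25: gcttcCTTTTTgtccgacatcttgacgagg
RPS29: gcagcTggcagcggtggttgtttctgttcg
RPS18: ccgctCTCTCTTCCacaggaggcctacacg
RPS3: cacttCCTTTCCTTTCagcggagcgcggcg
RPS27A: tcttcCTTTTCgatccgccatctgcggtgg
RPS12: gaggcCTCTTTCCCTgccgccgccgagtcg
RPS16: gctttCCTTTTCCggttgcggcgccgcgcg

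The RPS24, RPS25, RPS29 and RPS18 stretches lie at chr10:78033858-78033887 (plus strand), chr11:119018319-119018348 (minus), chr14:49598686-49598715 (minus) and chr6:33272070-33272099 (plus). Those of RPS3, RPS27A, RPS12 and RPS16 lie at chr11:75399513-75399542 (plus), chr2:55232683-55232712 (plus), chr6:132814564-132814593 (plus) and chr19:39435925-39435954 (minus). RPS27A has 3 listed starts and the one shown is the only one of them with the motif. RefSeq starts were matched for 25 of the 28 genes; RPS2, RPS15A and RPS20 were not matched. A C at the annotated start followed by at least 4 pyrimidines (C or T, transcribed strand only) was found for 19 of the 25 members (76%), for 26 of 37 large subunit protein genes and for 5.14% of all 27305 genes with a listed start. RPS24 had the longest run of the members, 14 bases, whereas RPS29 began with a T and had a run of 1. These matches describe the annotated sequence, which need not be the start used in MOLM-13 cells. Whether the 5′UTR reads of a member, RPS29 among them, begin at the start shown was not tested.

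The members as a whole took a smaller share of exonic reads in the IP than in the input. Their share was 1.22% in IP replicate 1 and 1.24% in IP replicate 2, with a mean of 1.23% ± 0.0180 (SD, n = 2), against 1.73% in the input, a ratio of 0.709. RPS2 made up part of the gap: without it the share averaged 1.19% ± 0.0144 in the IP libraries and 1.51% in the input, a ratio of 0.787. The direction turned with the denominator. Of all counted reads, introns and intergenic reads included, the members took 0.800% ± 0.0320 in the IP libraries and 0.532% in the input, a ratio of 1.504. Exonic reads made up 67.6% and 62.6% of the IP libraries and 30.7% of the input. This difference in share was not tested.

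Per gene, 8 of the 27 members tested were lower in the IP than in the input and 0 were higher, at an adjusted p under 0.05 in edgeR's quasi-likelihood test with exonic scaling. Over all 10392 genes tested, 11.4% were lower and 16.7% were higher. The members' median log2 fold of IP over input was -0.44, against 0.00 over all genes, and their folds ran from -2.62 to 0.36. Both IP libraries fell below the input for 19 of the 27 members and in no case did both exceed it, while for 8 the libraries lay on opposite sides. That count by library was not made over all genes. In the fit, 1 of the 27 members and 5207 of all 10392 genes had a fold above 0. All these folds are relative to the typical gene: scaling to all counted reads raised the median of all genes by 1.24 and gave 24 of the 27 members the opposite sign, with RPS2, RPS3A and RPSA as the exceptions, 15 called higher and 1 lower. At an unadjusted p under 0.05, 0 members were higher and 10 lower, and DESeq2 called 0 higher and 5 lower. RPS3A, RPS13 and RPS15A were not called by DESeq2, and RPS3, RPS12, RPS13 and RPS23 not without the filter on low counts; RPS2 and RPS27A were called in both.

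**Figure D1:**
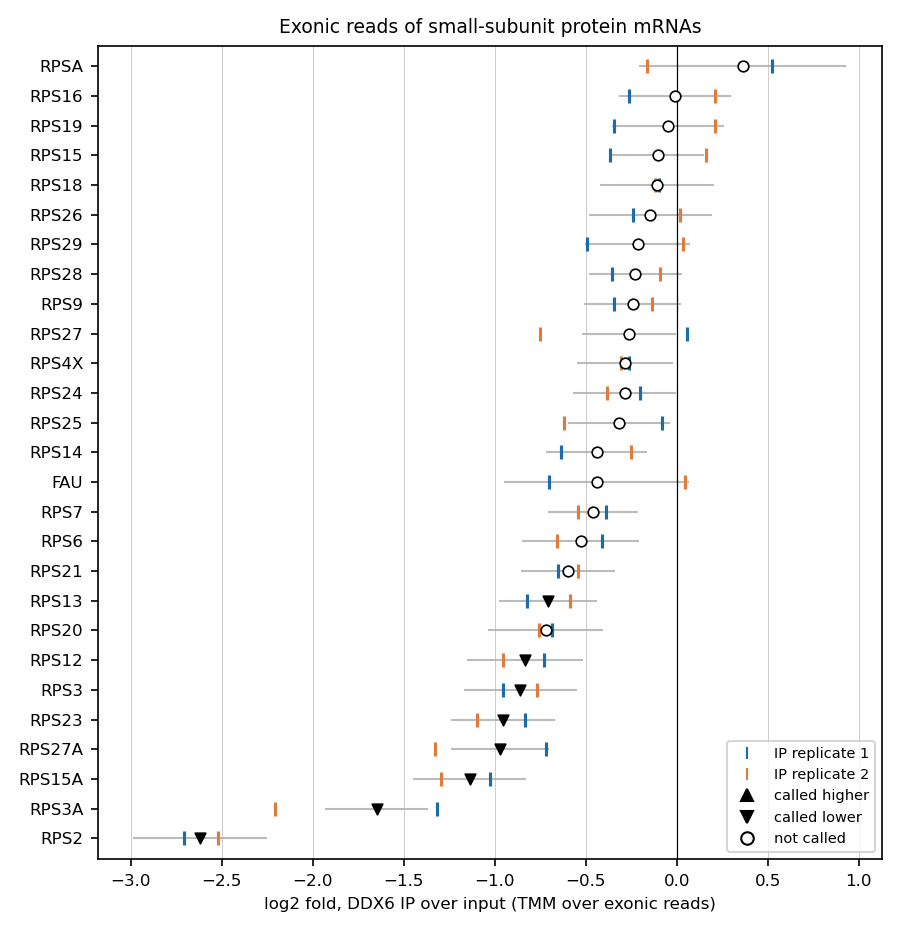
Log2 fold of exonic reads, DDX6 IP over input, for the 27 members tested, on the scale of exonic reads; points are the edgeR estimate, grey bars its standard error, and blue and orange ticks the IP libraries taken singly. RPS2 at -2.62 and RPS3A at -1.65 lie farthest left, and RPSA at 0.36 is the only point right of 0; with scaling to all counted reads 24 of the 27 change sign.

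Among the proteins of the body and platform, 5 of 16 tested were lower. RPS2, which lines the channel where the mRNA enters the subunit, was lowest of all. It had 1172 and 330 exonic reads in the IP libraries and 5302 in the input, or 361 and 410.4 CPM in the IP and 2364 CPM in the input (CPM here are exonic read counts scaled to library size by TMM). Both IP values lay far below the input value, and the log2 fold was -2.62 (SE 0.37, adjusted p = 1.35e-10). Of the 5302 input reads, 3654 lay in the 3′UTR, and on coding reads alone the log2 fold was -1.38. RPS2 was also the member still called lower after scaling to all counted reads. RPS3A, a platform protein near the exit of the mRNA channel, had 195 and 104 CPM in the IP libraries and 486 in the input, with a log2 fold of -1.65 (SE 0.28, adjusted p = 2.67e-07). Here the IP libraries also differed from each other, with log2 folds of -1.32 and -2.21 when each was set alone against the input.

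RPS23, RPS13 and RPS15A completed the body and platform genes that were lower. RPS23, a protein of the decoding centre, had 458 and 382 CPM in the IP libraries against 818 in the input (log2 fold -0.96, SE 0.29, adjusted p = 0.00531). RPS13, a body protein, had 312 and 367 CPM in the IP against 552 in the input (log2 fold -0.71, SE 0.27, adjusted p = 0.0332). RPS15A, also in the body, rested on fewer reads, 137 and 28 in the IP libraries and 195 in the input, with a log2 fold of -1.14 (SE 0.31, adjusted p = 0.00190). In the peak lists 7 and 4 of its peaks also carry the name of another gene, and it has a 5′UTR peak in both lists, with a -log10 p of 18.0 in IP replicate 1, although the tables hold 0 5′UTR reads for it in every library. Its counts may therefore be incomplete. In all 3 genes both IP libraries lay below the input, and under scaling to all counted reads all 3 had a fold above 0 that was not called.

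The other 11 body and platform genes were not called in either direction. RPSA, which also encodes a laminin receptor precursor, had 41 and 6 exonic reads in the IP libraries and 19 in the input, so its log2 fold of 0.36 has an SE of 0.57 (adjusted p = 0.678). FAU, whose product is the ribosomal protein fused to a ubiquitin-like protein, had 30 and 13 exonic reads in the IP libraries and 35 in the input (log2 fold -0.44, SE 0.51, adjusted p = 0.554). RPSA and FAU had the smallest input counts of the members tested, and differences of this size were not detectable with so few reads. Whether all of their exonic reads were assigned to them was not tested, so their counts may be incomplete; the peak lists hold 3 and 0 peaks for RPSA and 2 and 3 for FAU, none naming a second gene. RPS6, the protein phosphorylated by the S6 kinases, was well covered, with 3666 and 765 reads in the IP libraries and 3365 in the input, and had a log2 fold of -0.53 (SE 0.32, adjusted p = 0.217).

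Among the proteins of the head, 3 of 11 tested were lower, and the median log2 fold was -0.23, against -0.45 for the body and platform; the difference between these classes was not tested. RPS27A, which is made as a fusion with ubiquitin, had 314 and 205 CPM in the IP libraries and 517 in the input (log2 fold -0.97, SE 0.27, adjusted p = 0.00238). RPS3, which sits at the mRNA entry, had 655 and 746 CPM in the IP libraries and 1269 in the input (log2 fold -0.86, SE 0.31, adjusted p = 0.0232). RPS12, in the beak of the head, had 911 and 780 CPM in the IP libraries and 1510 in the input (log2 fold -0.83, SE 0.32, adjusted p = 0.0336). For these 3 genes each IP library was below the input, and with scaling to all counted reads each had a fold above 0 that was not called.

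The next 4 highest folds after RPSA were all of head proteins. RPS16, whose tail reaches the peptidyl site, had 691 and 959 CPM in the IP libraries and 828 in the input (log2 fold -0.01, SE 0.31, adjusted p = 0.984). RPS19, the gene most often mutated in Diamond-Blackfan anaemia, had 661 and 975 CPM in the IP libraries and 841 in the input (log2 fold -0.05, SE 0.31, adjusted p = 0.931). RPS15 and RPS18, which face the large subunit, had log2 folds of -0.10 (SE 0.25, adjusted p = 0.802) and -0.11 (SE 0.31, adjusted p = 0.837). For RPS16, RPS19 and RPS15 the input lay between the IP libraries. With scaling to all counted reads these 4 genes had log2 folds between 1.12 and 1.21 and were called higher.

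RPS10, a head protein, could not be tested, since it had 0 exonic reads in each IP library and 1 in the input. In the peak lists its exons are annotated also to the readthrough gene RPS10-NUDT3, whose own row had 0 exonic reads in every library. The authors' peak lists nonetheless hold 11 RPS10 peaks in IP replicate 1 and 9 in IP replicate 2, of which 10 and 8 name a second gene. The reads of RPS10 are thus missing from the count tables and its level was not measured here.

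**Figure D2:**
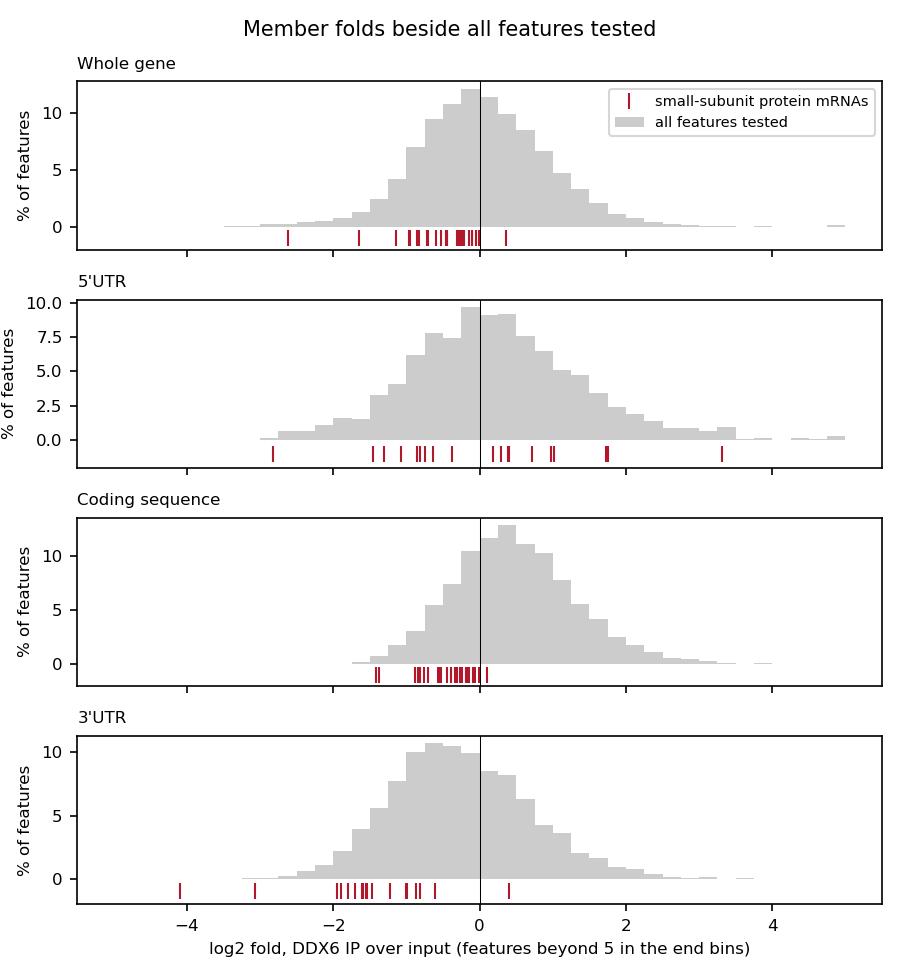
Distribution of log2 folds, DDX6 IP over input on the exonic scale, over all features tested (grey bars, percent of features in bins of 0.25) with each member as a red tick, for the whole gene and each region. The members sit left of the centre of all features in the coding sequence (medians -0.39 and 0.42) and 3′UTR (-1.55 and -0.32) and spread over both sides in the 5′UTR (0.18 and 0.15); all shift right with scaling to all counted reads.

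The members' IP reads were spread differently over the mRNA from those of the input. Of the members' exonic reads, 82.3% and 79.5% fell in coding sequence in the IP libraries and 70.9% in the input. The 3′UTR held 5.28% (95% exact binomial interval 5.06 to 5.51) and 5.81% (5.35 to 6.30) in the IP libraries against 16.1% (15.7 to 16.4) in the input. RPS2 carried part of this, and without it the 3′UTR share was 4.91% and 4.82% in the IP libraries and 8.36% in the input. The 5′UTR held 12.4% and 14.7% in the IP libraries and 13.0% in the input, so the input lay between them. A higher coding share in the IP was seen over all genes too, at 51.3% and 51.2% in the IP libraries and 32.7% in the input. Over all genes the 3′UTR share was 33.3% and 29.5% in the IP libraries and 33.5% in the input, while noncoding exons, which hold almost none of the members' reads, had 10.4% and 13.0% in the IP and 29.1% in the input. The members' change was not tested against that of other genes. These intervals cover counting error only.

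In the 3′UTR, 14 of the 18 members tested were lower in the IP and 0 were higher, where 18.3% of all 7194 3′UTRs tested were lower and 9.01% higher. The members' median log2 fold was -1.55, against -0.32 over all 3′UTRs. The other 10 members had too few 3′UTR reads to be tested, at most 20 in the input. RPS2 had 198 and 112 3′UTR reads in the IP libraries and 3654 in the input, a log2 fold of -4.09 (SE 0.36, adjusted p = 2.26e-26), with -4.72 and -3.54 for the IP libraries singly. RPS3A had 47 and 10 reads in the IP against 261 in the input, a log2 fold of -3.06 (SE 0.35, adjusted p = 4.58e-16). With all counted reads as the scale these 2 were still called lower, at -2.87 and -1.82, and no other member was. At an unadjusted p under 0.05, 0 members were higher and 15 lower, and DESeq2 called 0 higher and 8 lower.

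The remaining members called lower in the 3′UTR had log2 folds from -1.95 to -0.82. RPS15A was next, with 26 and 10 reads in the IP libraries against 81 in the input (log2 fold -1.95, SE 0.45, adjusted p = 0.000220). RPS23 had 150 and 28 reads in the IP against 351 in the input (log2 fold -1.90, SE 0.30, adjusted p = 1.67e-08). RPS9, which with RPS2 and RPS3 surrounds the mRNA entry, had 76 and 15 reads in the IP against 171 in the input (log2 fold -1.80, SE 0.34, adjusted p = 3.98e-06). RPS29, a zinc-binding protein of the head, had 204 and 45 reads in the IP against 375 in the input (log2 fold -1.48, SE 0.29, adjusted p = 1.12e-05). The IP libraries were both lower than the input, in CPM, for each of these 4 genes.

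At the other end, RPS16 was the only 3′UTR with a fold above 0. It had 251 and 99 reads in the IP libraries and 164 in the input, a log2 fold of 0.41 (SE 0.31, adjusted p = 0.361), and was called higher with all counted reads as the scale. RPS25, which is needed for translation from several viral internal ribosome entry sites, had 135 and 28 reads in the IP against 134 in the input (log2 fold -0.61, SE 0.33, adjusted p = 0.170). RPS24, a body protein also mutated in Diamond-Blackfan anaemia, had 227 and 37 reads in the IP against 238 in the input (log2 fold -0.82, SE 0.30, adjusted p = 0.0302). RPS24 was not called by DESeq2 or without the filter on low counts, and the signs of RPS24 and RPS25 turned under scaling to all counted reads, to 0.42 and 0.62, neither of them called.

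In the coding sequence, 3 of 25 members were lower and 0 higher, where 1.6% of all 8169 coding sequences were lower and 23.7% higher. The median log2 fold was -0.39 for the members and 0.42 over all coding sequences. RPS3A had 576 and 71 coding reads in the IP libraries and 822 in the input (log2 fold -1.41, SE 0.29, adjusted p = 1.96e-05). RPS2 had 931 and 209 in the IP and 1597 in the input (log2 fold -1.38, SE 0.32, adjusted p = 0.000209). RPS27A had 904 and 154 in the IP and 981 in the input (log2 fold -0.88, SE 0.31, adjusted p = 0.0189). Each was below the input in both IP libraries, but scaling to all counted reads ended all 3 calls and turned RPS27A to a log2 fold of 0.36. Singly, the IP libraries gave RPS3A log2 folds of -1.04 and -2.04. DESeq2 kept only RPS2 (adjusted p = 0.269 for RPS3A and 0.111 for RPS27A) and called 0 higher, and at an unadjusted p under 0.05 the counts were 0 higher and 7 lower.

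The highest coding folds lay near 0. RPS16 had 1644 and 592 coding reads in the IP libraries and 1300 in the input, a log2 fold of 0.09 (SE 0.35, adjusted p = 0.880). RPS19 had 2119 and 767 in the IP against 1815 in the input, a log2 fold of -0.02 (SE 0.37, adjusted p = 0.985). RPS27 had 593 and 79 in the IP against 340 in the input, a log2 fold of -0.07 (SE 0.29, adjusted p = 0.899). In these 3 genes the IP libraries fell on opposite sides of the input, and on the scale of all counted reads RPS19 and RPS27 had log2 folds of 1.20 and 1.17.

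The 5′UTR was the one region in which members moved both ways. Of 19 members tested, 4 were higher and 5 lower, where 16.2% of all 2025 5′UTRs were higher and 7.6% lower, with medians of 0.18 for the members and 0.15 over all. RPS24 was highest: it had 147 and 70 5′UTR reads in the IP libraries and 14 in the input, or 45.3 and 87.1 CPM in the IP and 6.24 in the input (log2 fold 3.31, SE 0.46, adjusted p = 7.18e-11). RPS25 had 59 and 18 reads in the IP against 13 in the input (log2 fold 1.75, SE 0.57, adjusted p = 0.0117). RPS29 had 291 and 166 reads in the IP against 96 in the input (log2 fold 1.73, SE 0.33, adjusted p = 5.02e-06). RPS18 had 229 and 96 reads in the IP against 104 in the input (log2 fold 0.98, SE 0.33, adjusted p = 0.0149). For all 4 genes each IP library was above the input, and for all 4 IP replicate 2 had the higher fold. Set alone against the input, the IP libraries gave log2 folds of 2.68 and 3.61 for RPS24, 1.05 and 2.24 for RPS29, and 0.59 and 1.35 for RPS18. Scaling to all counted reads left all 4 called higher, whereas with DESeq2 RPS24 alone was (adjusted p = 0.217 for RPS29 and 0.209 for RPS18).

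The 5 members lower in the 5′UTR were all of the head. Head genes were called both ways, with 3 higher and 5 lower of 10 tested, against 1 higher and 0 lower of 9 for the body and platform. The difference between these classes was not tested. RPS3 had 144 and 14 5′UTR reads in the IP libraries and 551 in the input, or 44.3 and 17.4 CPM in the IP and 246 in the input (log2 fold -2.82, SE 0.30, adjusted p = 1.13e-18). RPS27A had 116 and 11 reads in the IP against 173 in the input (log2 fold -1.46, SE 0.33, adjusted p = 0.000145). RPS20 had 878 and 245 reads in the IP against 1591 in the input (log2 fold -1.31, SE 0.32, adjusted p = 0.000513). The IP libraries gave log2 folds of -2.45 and -3.75 singly for RPS3 and -1.09 and -2.42 for RPS27A, both lower in IP replicate 2. RPS12 and RPS16 were lower by less, with log2 folds of -0.82 (SE 0.32, adjusted p = 0.0442) and -0.75 (SE 0.29, adjusted p = 0.0374), and both turned above 0 with scaling to all counted reads. RPS3 alone was still called lower on that scale, on which 11 members were called higher. With DESeq2, RPS3 and RPS20 were called lower, and RPS27A had an adjusted p of 0.0967.

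Members with the motif were found at both ends of the 5′UTR folds. Of the 17 members with both a tested 5′UTR and a listed start, the 13 with the C and pyrimidine run had log2 folds from -2.82 to 3.31, with 3 higher and 4 lower. The 4 without it at the listed start ran from -1.07 to 1.73, with 1 higher and 0 lower. The 1 higher was RPS29, whose 5′UTR reads were not matched to that start. RPS24 and RPS3, at the opposite ends, have runs of 14 and 11 bases. This is a description of few genes, with no test.

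**Figure D3:**
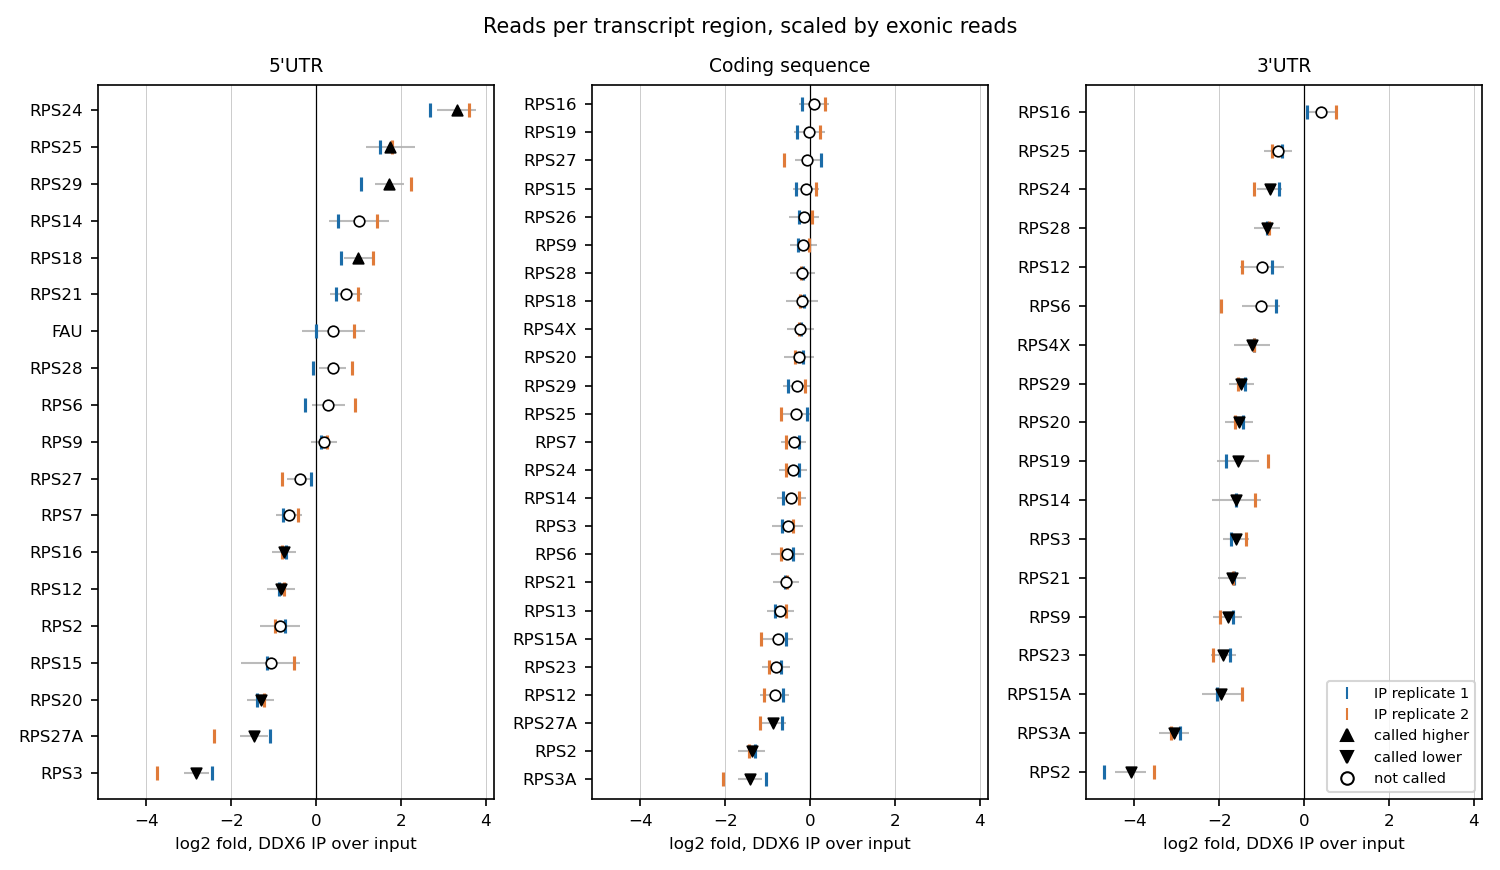
Log2 fold of reads in the 5′UTR, coding sequence and 3′UTR of each member tested, DDX6 IP over input on the exonic scale; points are edgeR estimates, bars standard errors and ticks the single IP libraries. In the 5′UTR RPS24 (3.31) and RPS3 (-2.82) mark the ends, in the 3′UTR all but RPS16 (0.41) lie below 0; scaling to all counted reads moves every point right and turns the sign of 6, 22 and 6 members in the 3 regions.

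The balance of regions within a gene does not depend on how libraries are scaled, because both regions come from the same library. Between 3′UTR and coding sequence, 11 of 18 members had a balance shifted away from the 3′UTR in the IP and 0 towards it. Over all 6552 genes, 29.7% were shifted away and 0.717% towards. At an unadjusted p under 0.05, 13 members were shifted away and 0 towards. DESeq2 called 0 towards and far fewer away than edgeR, as given in the next paragraph. The median change was -1.10 on the log2 scale for the members and -0.82 over all genes. RPS2 changed most: its 3′UTR took 17.5% and 34.9% of 3′UTR plus coding reads in the IP libraries and 69.6% in the input (log2 change -2.84, SE 0.31, adjusted p = 1.92e-16). RPS3A had 7.54% and 12.3% in the IP and 24.1% in the input (log2 change -1.78, SE 0.35, adjusted p = 2.04e-05). RPS9 had 8.56% and 5.79% in the IP and 19.9% in the input (log2 change -1.59, SE 0.34, adjusted p = 6.74e-05). Singly, the IP libraries gave log2 changes of -3.41 and -2.09 for RPS2 and -1.88 and -1.09 for RPS3A. RPS16 was the only member with a change above 0, at 13.2% and 14.3% in the IP and 11.2% in the input (log2 change 0.33, SE 0.32, adjusted p = 0.425).

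Between 5′UTR and coding sequence, 2 of 18 members were shifted towards the 5′UTR in the IP and 1 away from it, where 0.761% of all 1971 genes were shifted towards and 3.45% away. The members' median change was 0.42 and that of all genes -0.27. RPS24 had 9.32% and 19.7% of 5′UTR plus coding reads in the 5′UTR in the IP libraries and 1.17% in the input (log2 change 3.70, SE 0.74, adjusted p = 0.000192). RPS29 had 22.4% and 33.7% in the IP and 8.82% in the input (log2 change 1.97, SE 0.64, adjusted p = 0.04996, just inside the threshold). RPS3 had 7.13% and 2.47% in the IP and 21.2% in the input (log2 change -2.44, SE 0.67, adjusted p = 0.0152). For the IP libraries singly the log2 changes were 2.94 and 4.17 for RPS24, 1.56 and 2.37 for RPS29 and -1.79 and -3.34 for RPS3. RPS25, RPS20 and RPS16 came next in order of adjusted p at their signs and were not called, with log2 changes of 2.09 (SE 0.76, adjusted p = 0.0944), -1.04 (SE 0.65, adjusted p = 0.457) and -0.82 (SE 0.64, adjusted p = 0.596). With DESeq2 in place of edgeR, RPS24 was the only member called towards the 5′UTR, and 2 members rather than 11 were called away from the 3′UTR.

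**Figure D4:**
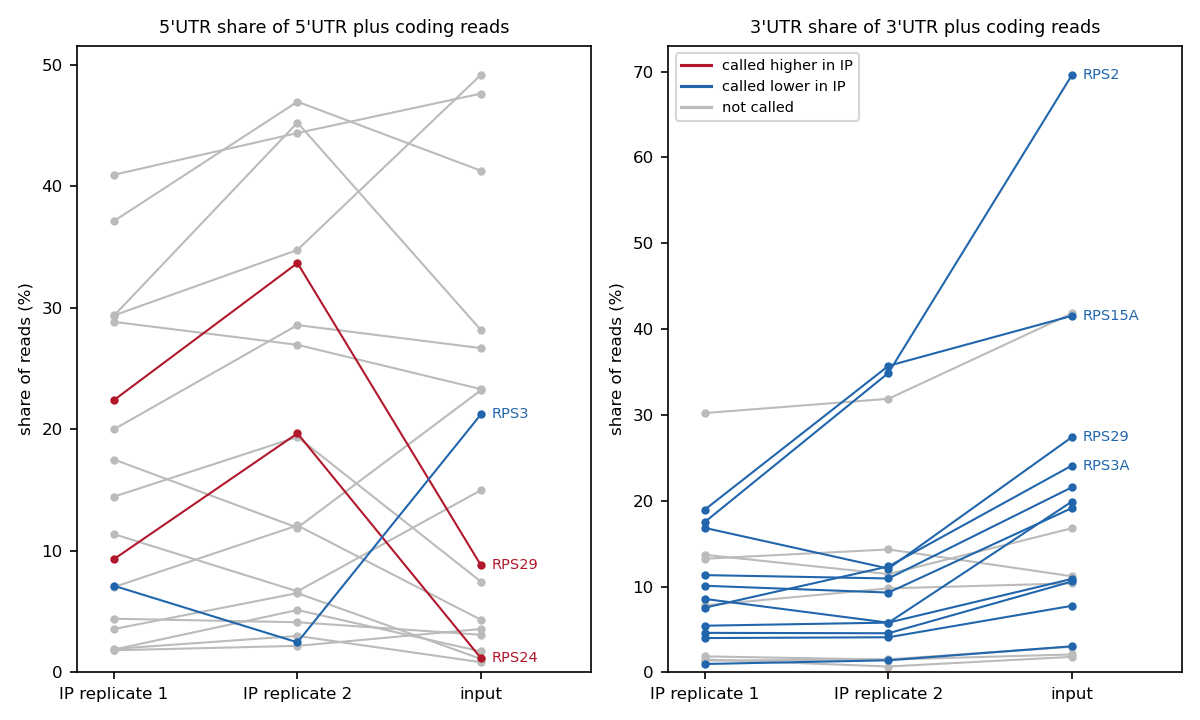
Share of a member's reads in the 5′UTR (left, of 5′UTR plus coding reads) and in the 3′UTR (right, of 3′UTR plus coding reads) in the IP libraries (replicates 1 and 2) and the input; each line is a gene, red and blue where the balance was called. The RPS24 and RPS29 lines fall and the RPS3 line climbs towards the input on the left, and on the right RPS2 stands at 17.5% and 34.9% in the IP libraries and 69.6% in the input.

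Intronic reads were a larger part of the input than of the IP for most members, and they were kept out of the folds above for that reason. Of exonic plus intronic reads of the members, 8.78% and 15.0% were intronic in the IP libraries and 31.4% in the input; over all genes the shares were 27.6% and 31.3% in the IP and 68.1% in the input. The input share lay above both IP shares for 22 of 27 members and below both for 4. Over all 10392 genes tested, it lay above both for 9148 and below both for 111, so a higher input share was not particular to the members. Of the members, 7 hold snoRNA genes within their span, and their median intronic share was 16.8% and 30.6% in the IP libraries and 41.7% in the input. For the 20 others it was 5.30% and 6.76% in the IP and 10.4% in the input. Reads of a snoRNA and of the intron around it could not be told apart in these tables.

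The snoRNA hosts varied widely. RPSA, host of SNORA6 and SNORA62, had 683 and 611 intronic reads in the IP libraries and 1682 in the input, so that 94.3% and 99.0% of its IP reads and 98.9% of its input reads were intronic. RPS12, host of SNORA33, SNORD100 and SNORD101, had 440 and 201 reads in introns near splice sites in the IP and 4648 in the input. RPS2, host of SNORA10 and SNORA64, had 143 and 96 reads at 5′ splice sites in the IP and 4756 in the input. The large input counts of RPS2 in the 3′UTR and at the 5′ splice site thus occur in the same gene, and whether they belong to the same RNA was not tested. Adding intronic reads to the exonic ones turned the sign of 22 of the 27 members, with 13 called higher and 1 lower and a median of 0.63.

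**Figure D5:**
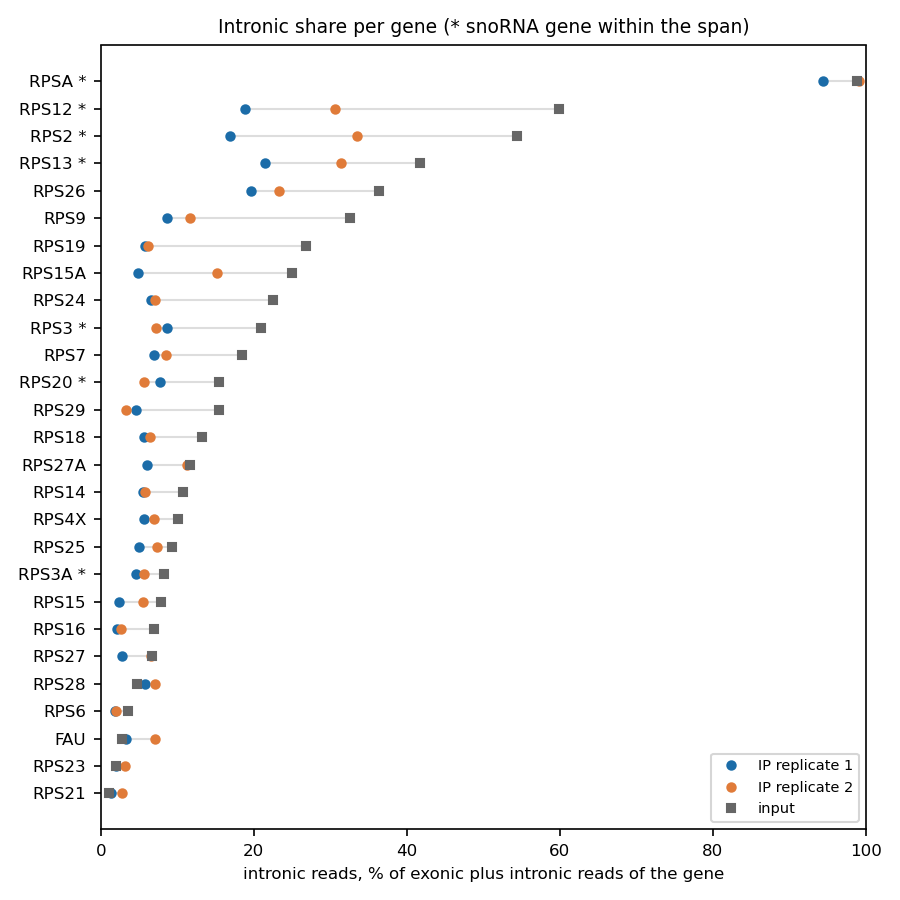
Intronic reads as a percentage of exonic plus intronic reads per member in both IP libraries and the input, ordered by the input; an asterisk marks genes with a snoRNA gene inside their span. RPSA is intronic by 94.3% or more in every library, and for 22 of 27 genes the input square lies right of both IP points. The input share was above both IP shares for 9148 of all 10392 genes tested.

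Near-identical copies limit how surely reads belong to a member. RefSeq lists 656 pseudogenes named after the members, of which 154 had reads in the tables. Their exonic reads came to 584 and 216 in the IP libraries and 397 in the input, small beside the members' own. How reads that fit several places were treated is not given in the sources used here, so the values of members with many copies are uncertain to that extent.

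The authors' peak lists hold 452 member peaks in IP replicate 1 and 305 in IP replicate 2, with coordinates on hg19 and folds and p-values as the authors computed them. None reached a log2 fold of 3 with a -log10 p of 3, a mark that 11.5% of all 123298 peaks in IP replicate 1 and 12.9% of all 62411 in IP replicate 2 passed. Of peaks with any positive log2 fold and a -log10 p of at least 3, the members had 369 (81.6%) and 156 (51.1%), where all peaks had 35.1% and 24.3%. The members' median log2 fold per peak was 1.07 in IP replicate 1 and 0.69 in IP replicate 2, against 1.77 and 2.29 over all peaks. The scale of these folds is not stated in the sources used here and differs from that of the count folds.

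In both lists the member peak with the highest fold lay in a 5′UTR. In RPS24 a peak at chr10:79793621-79793659 (hg19, plus strand) had a log2 fold of 2.54 in IP replicate 1, and one at chr10:79793620-79793651 had 2.89 in IP replicate 2, both with a -log10 p at 400, the highest value the lists contain. RPS24 is thus high in its 5′UTR both in the counts and in the peak lists, which come from the same libraries. The highest folds were 2.69 in IP replicate 1, in the RPSA 5′UTR (chr3:39448224-39448255, plus strand), and 2.96 in IP replicate 2, in the FAU 5′UTR (chr11:64889392-64889446, minus strand), with -log10 p of 8.06 and 2.41. RPS29 had a 5′UTR peak at chr14:50053087-50053093 (minus strand) with a log2 fold of 1.02 and a -log10 p of 29.4 in IP replicate 1, and its highest in IP replicate 2, at chr14:50053069-50053085, had 1.82 and 76.5.

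By region, coding sequence held 400 member peaks in IP replicate 1 and 262 in IP replicate 2, the 5′UTR 32 and 31, and the 3′UTR 19 and 10. The 3′UTR peaks had median log2 folds of 0.11 and -0.97, against 1.07 and 0.62 in the 5′UTR and 1.09 and 0.71 in coding sequence. Of the 452 peaks in IP replicate 1, 402 (88.9%) met a member peak of IP replicate 2 by at least 1 base, as did 300 of the 305 in IP replicate 2 (98.4%) the other way. Over all peaks the shares were 28.3% and 50.6%, and the difference was not tested. No member peak met any of the 1587 peaks that the authors list as reproducible, all of which have a log2 fold of at least 3. Member peaks had log2 folds of at most 2.69 and 2.96, so this is not a result separate from the threshold count above. Both lists share the 1 input, and member peaks lie close together on short exons, so the overlap is a description only.

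Other genes of ribosome production and of TOP control give the setting, on the same exonic scale and against the same typical gene. Of the 46 large subunit protein mRNAs in the comparison list, which leaves out RPL37A, 21 were lower in the IP and 1 higher, with a median log2 fold of -0.56, against -0.44 for the small subunit. RPL36AL (0.71) had the highest log2 fold among them and RPL32 (-2.18) and RPL17 (-1.93) the lowest. Of their 3′UTRs, 28 of 39 were lower, with a median of -1.50. Their 5′UTRs had a median of -0.72 with 2 higher and 9 lower of 34, where the small subunit had 0.18; the difference was not tested.

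The mRNAs of factors that assemble the small subunit lay on the other side. Of 19 tested, 7 were higher in the IP, with a median log2 fold of 0.47. UTP20, a component of the small subunit processome, had 411 and 105 exonic reads in the IP libraries and 77 in the input (log2 fold 1.90, adjusted p = 4.15e-07). BYSL had 219 and 65 in the IP and 54 in the input (log2 fold 1.60, adjusted p = 0.000137). RRP7A and TSR2, the chaperone of RPS26, were lowest at -0.55 each, and neither was called. Of 17 genes that control TOP mRNAs, 1 was higher (LARP4, log2 fold 0.80, adjusted p = 0.0104) and 3 were lower, with a median of -0.38. RPS6KB2 (-1.29) and CNBP (-0.82) were the lowest of them, and TIAL1 (0.43) came second to LARP4. LARP1, the repressor of TOP mRNAs, had a log2 fold of -0.39 (adjusted p = 0.283). The difference between these lists and the members was not tested.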

How the data were processed

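The deposited tables hold read counts per gene and transcript region (coding sequence, 5′UTR, 3′UTR, introns, noncoding exons), not normalized, for 2 DDX6 IP libraries and 1 input. The submitters' processing notes name UMI-tools, cutadapt, STAR, SAMtools and hg19; the sources used here give no versions, counter, peak caller, strand setting or treatment of multi-mapping reads. The authors' peak lists give a log2 fold and a −log10 p per peak, without headers; the values of −log10 p stop at 400. Depth was 4643494, 1244213 and 7807540 counted reads (IP replicate 1, IP replicate 2, input). Intergenic reads, a row that names no gene, were 4.05%, 3.78% and 2.63% and stayed out of tests.

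Features with at least 10 reads in at least 2 libraries were tested with edgeR 4.0.16 in R 4.3.3 (TMM over exonic reads, glmQLFit and glmQLFTest, Benjamini-Hochberg adjustment over all features, threshold 0.05). The balance of regions was an interaction term in a fit over both regions. The residual spread has 1 degree of freedom. The spread pooled over all features was weighted with 75.8 degrees of freedom in the gene fit and without limit in the region and balance fits. Standard errors were derived from the log2 fold and its p; folds of single libraries use a prior count of 2. DESeq2 1.42.0, other scalings, filters and read classes, and leaving out either IP library were alternatives. The tests were checked on simulated data, drawn for every library with the spread of the fits themselves. That check cannot show whether the input varies like the IP libraries. Symbols were matched for 28576 of 29754 Ensembl identifiers. Sequences came from RefSeq (GRCh38.p14); no hg19 genome was used, so no sequence is given for a peak. The head and the body and platform classes follow the structure of the subunit.

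The members and lists were chosen with earlier results of these data known. Genes are named by rule: the 5 highest and 5 lowest gene folds, the 3 highest and 3 lowest of each region, every member called against most of the rest, the 3 smallest adjusted p of each sign in the balance fits, RPS27A and FAU, and 2 genes at each end of the comparison lists. RPS6, RPS9, RPS23, RPS29 and LARP1 were added after their values were seen where the rule did not name them. A few genes that the rule or the marker lists name are not reported here.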

Additional observations from a re-analysis of the deposited data

How the results depend on the processing

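No paired analysis was possible because the input has no replicate number that pairs it with an IP library. Leaving out an IP library left 1 library against 1, a value with no test, so counts of calls were not recomputed; the share ratio was 0.702 to 0.717 and no member that was called changed sign. Scaling moved the most, and the cause was not tested. With all counted reads as the scale, 15 members were called higher and 1 lower per gene, 13 and 0 in coding sequence, 11 and 1 in the 5′UTR, and 1 and 2 in the 3′UTR. Signs turned per gene for 24 of 27 members, among them RPS3 (0.37), RPS12 (0.40), RPS13 (0.52), RPS15 (1.12), RPS15A (0.10), RPS16 (1.21), RPS18 (1.12), RPS19 (1.17), RPS23 (0.28), RPS27A (0.27) and FAU (0.79). They turned in coding sequence for 22 of 25, among them RPS19 (1.20), RPS27 (1.17) and RPS27A (0.36), in the 5′UTR for 6 of 19, among them RPS12 (0.41) and RPS16 (0.48), and in the 3′UTR for 6 of 18, among them RPS4X (0.018), RPS24 (0.42), RPS25 (0.62) and RPS28 (0.37). With intronic reads added, 13 members were called higher and 1 lower, and signs turned for 22 of 27, among them RPS3 (0.10), RPS13 (0.14), RPS15 (1.01), RPS16 (1.09), RPS18 (0.96), RPS19 (0.77), RPS23 (0.24), RPS27A (0.16) and FAU (0.79). With TMM over exonic and intronic rows, 7 and 0 were called in coding sequence, 9 and 1 in the 5′UTR and 1 and 4 in the 3′UTR. Signs then turned for 22 coding sequences, among them RPS19 (0.95), RPS27 (0.91) and RPS27A (0.10), for the 5′UTRs of 5 members, among them RPS12 (0.15) and RPS16 (0.22), and for the 3′UTRs of RPS24 (0.16), RPS25 (0.36) and RPS28 (0.11). With coding and 3′UTR reads alone, RPSA (-0.52) and RPS16 (0.10) turned. DESeq2 called 5 members lower per gene, 1 lower in coding sequence, 1 higher and 2 lower in the 5′UTR, 8 lower in the 3′UTR, 2 shifted from the 3′UTR and 1 towards the 5′UTR, with no sign turned. Without the filter on low counts 4 were lower per gene, 3 lower in the 5′UTR and 1 shifted towards the 5′UTR. A minimum of 30 reads gave 5 lower in coding sequence, and DESeq2 size factors in edgeR 3 lower in the 5′UTR. Over all genes, calls per gene numbered 1738 higher and 1188 lower, against 678 and 254 with DESeq2 and 6990 and 141 with all counted reads as the scale. Counting any positive peak with a −log10 p of at least 3 gave 369 and 156 member peaks in place of 0, a −log10 p of at least 5 left 0, and the stricter overlap left 389 and 300 shared. The share ratio was 1.504 of all counted reads and 0.787 without RPS2, an alternative chosen after seeing the data. RPSA and FAU rest on few reads, and the reads of RPS10 are missing from the counts.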

Other observations

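The IP libraries differed from each other more in the 5′UTR than in the rest of the members' mRNAs. The gap between the log2 folds of the IP libraries had a median of 0.68 over 19 5′UTRs, 0.31 over 25 coding sequences and 0.37 over 18 3′UTRs, and was over 1 for 4, 0 and 2 of them. In 14 of the 19 5′UTRs IP replicate 2, the shallower library, had the higher fold, as in 10 of 25 coding sequences and 7 of 18 3′UTRs. This was not particular to the members. For the large subunit list the counts were 26 of 34, 19 of 45 and 17 of 39. Over all genes the 5′UTR held 5.04% of exonic reads in IP replicate 1 and 6.21% in IP replicate 2. The gaps and counts were not taken over all features. In IP replicate 2 the lowest read number was 5 among the members' tested 5′UTRs, 18 among their coding sequences and 5 among their 3′UTRs, and the part of read number was not tested.

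RPS20 and RPS13 show how host genes differ in where intronic reads lie. RPS20, host of SNORD54, had 187 and 27 reads at 3′ splice sites in the IP libraries and 444 in the input, and 25 and 4 at 5′ splice sites in the IP and 42 in the input. RPS13, host of SNORD14A and SNORD14B, had 217 and 117 reads in introns near splice sites in the IP and 743 in the input. These genes were chosen after their values were seen.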
